A study of Mus musculus with 4 samples.

Results

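The genes described here encode the constitutive proteasome and the factors that assemble it. They were chosen by symbol, as protein-coding mouse genes named Psma, Psmb, Psmc, Psmd, Psme, Psmf or Psmg with a digit, without the immunoproteasome genes Psmb8, Psmb9 and Psmb10 and without pseudogenes. The rule found 47 of the 38124 gene IDs in the count tables, of which 45 are proteasome subunits, regulators or assembly factors. The other 2, Psmc3ip, a recombination factor, and Psme2b, a close copy of Psme2, matched by symbol and belong to no particle considered here. By role, 16 genes encode the core particle, 17 the cap, 5 activators or an inhibitor, 4 chaperones of the core and 3 chaperones of the cap.

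Poly(A) RNA was sequenced from sorted intestinal cells of C57BL/6 male mice aged 71 weeks. The groups were GFP-high cells, labelled intestinal stem cells, from mice fed a high-fat diet (HFD), GFP-low cells, labelled progenitors, from HFD mice, GFP-high cells from mice on the control diet, and GFP-low cells from control mice. Each group is a single library made from cells pooled from 2 to 5 mice, so no group has a replicate, and the labels do not tell whether 1 set of mice gave both fractions. All groups share the GFP reporter, whose driving gene, like the makeup of the diets, is not given in the sources used here.

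The proteasome is the large protease of the cytosol and nucleus that degrades proteins tagged with ubiquitin. Its core is a barrel of alpha and beta rings with the proteolytic sites inside, and its cap has a base with a ring of ATPases, which unfolds substrates and opens the barrel, and a lid, which removes ubiquitin. Activators such as PA28 can bind the core in place of the cap, dedicated chaperones put the core and the base together, and transcription factors of the Nrf family raise many subunit genes together when proteasome capacity falls short. In interferon-exposed epithelium the catalytic beta subunits can be replaced by their immunoproteasome counterparts.

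The 4 libraries held 4677389 to 6207080 counts. A gene was tested where 2 or more libraries had 20 or more counts, which left 43 members, with a median of 382 counts. Levels are CPM, which are counts corrected for library size with edgeR's TMM factors, which set the typical gene equal between libraries. Marker lists moved with the sort and some also with diet: the summed level of 9 stem cell markers was 9343 and 10354 CPM in GFP-high under HFD and control, against 1457 and 1976 CPM in GFP-low, and that of 6 goblet markers was 2903 and 3302 CPM against 16659 and 38301 CPM. The 8 leukocyte markers together reached 13.2 to 37.6 CPM, with Ptprc at 0, and the 5 stromal markers 1.63 to 26.1 CPM, with Col1a1 and Col1a2 at 0. Of 10 enterocyte markers 4 rose under HFD, against 2.96% of all tested genes. The 10 summed to 958 and 5814 CPM in HFD GFP-high and GFP-low, against 638 and 2208 CPM under control. Under HFD 4 of 5 Paneth, 2 of 9 stem cell and 1 of 5 enteroendocrine markers fell, against 3.5% of all tested genes. The Paneth markers summed to 350 and 846 CPM under HFD, against 579 and 1553 CPM under control. None of the 6 goblet and 5 cycling markers was called for diet. In GFP-high 4 of the 5 cycling markers were higher, against 22.0% of all tested genes. The part of cell composition in the results on fraction and on diet was not tested, and in pooled cells fewer cells of a type and less RNA per cell cannot be told apart.

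Of the members that were not tested, Psma8, the testis form of an alpha subunit, had 0 counts in all 4 libraries, which allows up to 0.449 to 0.680 CPM by the limit of 3 counts. Psmb11, the thymus form of Psmb5, had 4 and 2 counts in HFD GFP-high and GFP-low cells, against 5 and 2 in the control fractions. Psmc3ip had 27 and 14 counts in HFD GFP-high and GFP-low cells, against 18 and 3 under control, and Psme2b had 4 and 5, against 6 and 6. The tissue-restricted subunits were therefore at or near the counting floor, and every tested member was detected in all 4 libraries. Limits and intervals here cover counting error only.

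Promoter windows of 4 members on which the comparisons below turn are shown first, from RefSeq on GRCm38.p6, each running from 250 bases before to 50 bases after an annotated start. They belong to Psme1, the member that differed between diets, to Psme2, its partner in PA28, and to Psmb5 and Psmd8, subunits of the core and lid that were lower in GFP-high cells. Capitals mark matches to TGACNNNGC, the core of the antioxidant response element bound by Nrf factors, or to the core of the interferon response element, searched as GAAA followed after any 2 bases by another GAAA, on either strand.
Psme1, chr14:55578244-55578543, plus strand: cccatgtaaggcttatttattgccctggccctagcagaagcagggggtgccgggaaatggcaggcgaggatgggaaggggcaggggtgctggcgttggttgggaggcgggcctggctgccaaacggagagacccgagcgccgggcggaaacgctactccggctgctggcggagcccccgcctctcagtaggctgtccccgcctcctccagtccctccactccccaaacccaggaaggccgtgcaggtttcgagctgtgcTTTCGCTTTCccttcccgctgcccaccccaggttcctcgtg
Psme2, chr14:55591052-55591351, minus strand: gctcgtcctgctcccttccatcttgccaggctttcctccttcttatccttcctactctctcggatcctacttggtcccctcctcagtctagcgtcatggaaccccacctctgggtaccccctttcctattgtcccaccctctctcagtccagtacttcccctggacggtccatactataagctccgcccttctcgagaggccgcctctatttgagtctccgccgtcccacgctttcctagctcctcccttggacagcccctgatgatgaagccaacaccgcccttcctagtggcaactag
Psmb5, chr14:54617946-54618245, minus strand: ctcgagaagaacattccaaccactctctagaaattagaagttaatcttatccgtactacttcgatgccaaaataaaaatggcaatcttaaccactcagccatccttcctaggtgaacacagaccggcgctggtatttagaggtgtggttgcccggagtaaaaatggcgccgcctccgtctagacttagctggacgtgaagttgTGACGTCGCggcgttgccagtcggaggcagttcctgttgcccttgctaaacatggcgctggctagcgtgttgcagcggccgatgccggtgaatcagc
Psmd8, chr7:29180624-29180923, minus strand: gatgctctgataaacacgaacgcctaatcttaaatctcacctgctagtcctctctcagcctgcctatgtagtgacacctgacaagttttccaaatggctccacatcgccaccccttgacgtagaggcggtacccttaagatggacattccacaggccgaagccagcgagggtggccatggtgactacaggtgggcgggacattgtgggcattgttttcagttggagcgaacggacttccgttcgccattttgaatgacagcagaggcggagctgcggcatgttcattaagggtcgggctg
Psme1 held an interferon element match, read on the opposite strand, at bases 260 to 269 of its window, and Psmb5 a TGACNNNGC match at bases 204 to 212. Psme2, shown by 1 of its 2 windows, and Psmd8 held neither. Of the 43 tested members, 36 had at least 1 window, 39 windows in all. TGACNNNGC was found in 6 of these 39 (15.4%), against 14.5% of the 10796 windows of all tested genes and 12.4% of all 32851 windows. The interferon element was found in 5 of 39 (12.8%), against 2.79% of windows of tested genes and 3.44% of all windows. These belong to Psme1, Psmb3, Psmd4, Psmd9 and Psmg4, of which Psme1 alone was called for diet. CCAAT, the NF-Y box, was found in 12 of 39 (30.8%), against 38.1% and 37.4%. A match is a string of letters in the window and was not tested for binding.

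Levels were compared between subunits per kilobase of the longest principal transcript, so they depend on that length. Across the 31 tested core and cap subunits, the mean over the 4 libraries ran from 5.61 to 134.8 CPM per kilobase, with a median of 50.02. Core subunits had a median of 69.3 CPM per kilobase and cap subunits 43.0, while the core chaperones lay at 16.0 to 19.5 and the cap chaperones at 7.44 to 9.52. The highest member of any class was Psme1, at 162 CPM per kilobase. The measured levels thus differed between subunits of the same particle, and the lowest of them are uncertain.

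The lowest subunits of that range shared sequence with other genes, and so did some higher ones. Many proteasome genes have processed pseudogenes, and reads that match several genes may have been dropped by the counting. The principal transcript of Psma5, an alpha ring subunit, shared 61% of its 40-base words with transcripts of other genes, above all Gm8394, and Psma5 was lowest at 5.61 CPM per kilobase. Psmb3, a beta ring subunit, shared 62.4% and stood at 17.97 CPM per kilobase. Psma3, an alpha ring subunit, shared 23.8% and stood at 10.2, on a transcript of 2846 bases, against 1239 for Psma5. Psma2, with 2911 bases, stood at 24.6 with only 5.71% shared. Psmb5 shared 67.0%, above all with Gm3375, and still stood at 53.4 CPM per kilobase. Psma4 shared 38.5% and stood at 77.6, and Psmb7 shared 30.0% and stood at 60.9. The 16 core and cap subunits with under 1% shared words lay between 30.1 and 126 CPM per kilobase (median 62.5), and the 9 with over 20% between 5.61 and 77.6 (median 40.4). The labels do not state how such reads were counted, so the levels of these genes are uncertain. The part of shared words and of transcript length in them was not tested.

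**Figure D1:**
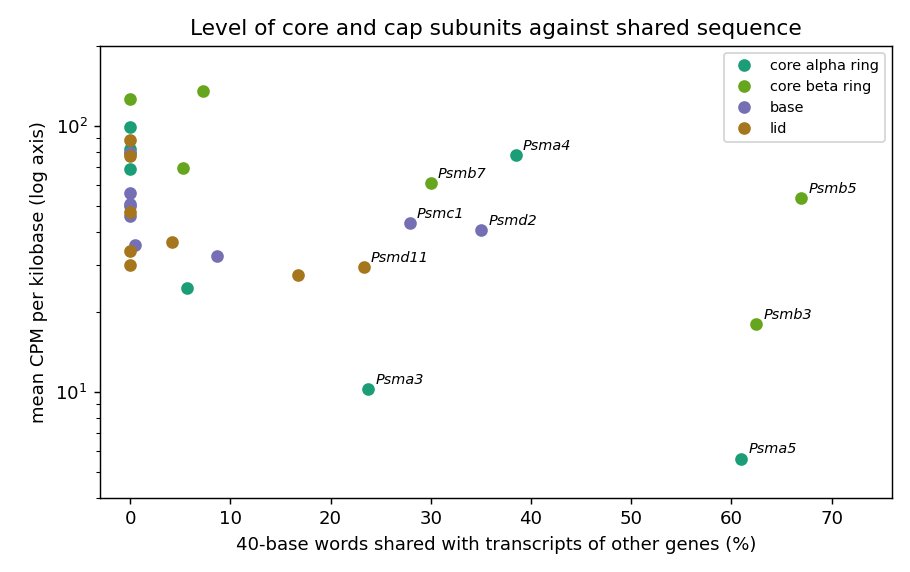
Mean level of the 31 core and cap subunits over the 4 libraries (CPM per kilobase, log axis) against the share of 40-base words of their principal transcript found in transcripts of other genes (%). Psma5 and Psmb3, both above 60%, lie at 5.61 and 17.97 CPM per kilobase, and Psmb5, at 67.0%, lies at 53.4. The 16 subunits under 1% lie between 30.1 and 126.

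The fractions were compared next, which asks how stem cells and their progenitors differ. Of the core and cap genes, those that passed the test were lower in GFP-high cells relative to the typical gene, by differing amounts. All 31 tested core and cap subunits had log2 fraction ratios, GFP-high over GFP-low, below 0 (range -0.59 to -0.03), as 50.1% of all tested genes did, 14 of them fell by edgeR's quasi-likelihood test with Benjamini-Hochberg adjustment over all 10694 genes, and none rose. The median was -0.25, a 1.19-fold lower level, where the median of all tested genes was 0.00. Over the 43 tested members 15 fell and 1 rose (37.2% called), against 47.6% of all tested genes called, of which 25.6% were lower and 22.0% higher in GFP-high. Both GFP-high libraries lay below both GFP-low libraries in 27 of 31 core and cap subunits, against 34.3% of all tested genes, and none had both GFP-high libraries above, against 33.7%.

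The scale matters for that direction. Scaled by library totals, the median log2 ratio of all genes moved to 0.19 and that of the core and cap subunits to -0.06. A change of scale shifts all genes by about the same amount. The distance of 0.25 between the medians is therefore kept by construction and is not a further result. As a share of all counts, core and cap genes took 0.250% and 0.231% in GFP-high cells under HFD and control, against 0.256% in GFP-low cells under either diet. On that scale 2 members rose and 3 fell, against 34.0% of all genes higher and 17.8% lower (51.8% in all). Both GFP-high libraries then lay below both GFP-low libraries in 11 of 31 core and cap subunits and above them in 3, against 23.4% and 47.6% of all genes. The 3 that fell on both scales were Psmb5, Psmd8 and Psme2, and Psmg2 rose on both. DESeq2's Wald test called 1 member lower, Psmd8, and 0 higher, against 13.9% and 8.41% of all genes (22.3% in all).

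**Figure D2:**
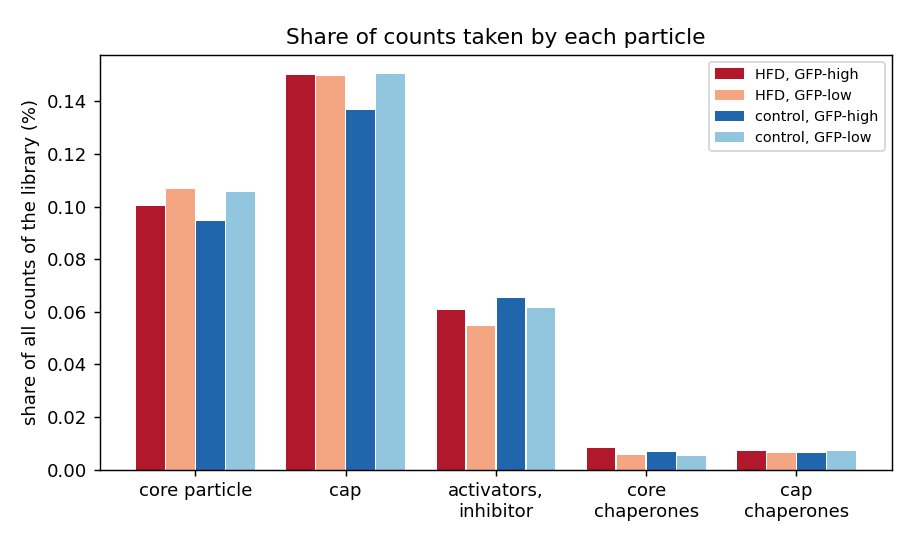
Share of all counts of each library (%) taken by the genes of each particle, from 0. The core took 0.100% and 0.0946% in GFP-high under HFD and control, against 0.107% and 0.106% in GFP-low, and the core chaperones 0.00835% and 0.00656% against 0.00546% and 0.00515%.

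In the beta ring 5 of 7 tested subunits fell in GFP-high, against 25.6% of all tested genes, with a median log2 ratio of -0.34. Scaled by library totals 1 of the 7 fell, against 17.8%. Psmb5 carries the chymotrypsin-like site. It had 44.0 and 32.8 CPM in GFP-high under HFD and control, against 62.3 and 52.8 CPM in GFP-low. Both GFP-high libraries thus lay below both GFP-low libraries, as in 34.3% of all tested genes. It fell 1.502-fold (log2 -0.59 ± 0.13 SE, edgeR adjusted p = 0.00131, or 0.0215 scaled by library totals). Its gene lies at chr14:54614119-54618022 on the minus strand (GRCm38), and with 67.0% shared words its level is uncertain. Psmb6, with the caspase-like site, had 93.6 and 95.8 CPM in GFP-high, against 123 and 118 CPM in GFP-low, a 1.27-fold fall (log2 -0.35 ± 0.10 SE, edgeR adjusted p = 0.0111). That call was lost when libraries were scaled by totals (adjusted p = 0.229). Psmb7, with the trypsin-like site, had 69.8 and 63.2 CPM against 71.8 and 77.9 CPM and did not pass (log2 -0.17 ± 0.12 SE, edgeR adjusted p = 0.25); it stood at 0.023 scaled by library totals, and 405 of its exon bases overlap Nek6 on the opposite strand. Of the structural beta subunits, Psmb1, Psmb2 and Psmb4 fell with log2 ratios of -0.32 to -0.34, and Psmb3, at 15.0 and 11.6 CPM against 13.6 and 15.0 CPM, did not pass.

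In the alpha ring, which forms the gate of the barrel, 3 of 7 tested subunits fell, against 25.6% of all tested genes, and the median was again -0.34. Scaled by library totals 0 of the 7 were called, against 17.8% of all genes lower. Psma4 had 77.5 and 74.9 CPM in GFP-high, against 113 and 96.7 CPM in GFP-low (log2 ratio -0.46 ± 0.11 SE, edgeR adjusted p = 0.0026). Psma2 had 63.82 and 57.92 CPM, against 85.996 and 78.62 CPM (log2 -0.44 ± 0.11 SE, edgeR adjusted p = 0.00448). Psma6 had 64.1 and 59.7 CPM, against 77.5 and 86.3 CPM (log2 -0.40 ± 0.12 SE, edgeR adjusted p = 0.00996). In each of these genes both GFP-high libraries lay below both GFP-low libraries, as in 34.3% of all tested genes. Psma1 was the exception in the ring, at 94.98 and 99.74 CPM against 91.05 and 108.07 CPM (log2 -0.03 ± 0.11 SE, edgeR adjusted p = 0.86). Psma5 had only 38 and 41 counts in GFP-high, against 39 and 30 in GFP-low, and the standard error of its log2 ratio was 0.31.

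The 9 subunits of the base lay close together, with log2 ratios between -0.34 and -0.16 and a standard deviation of 0.06 between them. The ATPases Psmc1 and Psmc3 and the scaffold subunit Psmd2 fell, which is 33.3% of the 9, near the 25.6% of all tested genes. Psmc1 had 60.4 and 60.1 CPM in GFP-high, against 76.9 and 76.1 CPM in GFP-low (log2 ratio -0.34 ± 0.11 SE, edgeR adjusted p = 0.0193). Psmd2 had 111 and 101 CPM, against 125 and 141 CPM (log2 -0.32 ± 0.11 SE, edgeR adjusted p = 0.0228). Psmc3 was near the threshold and shares 215 exon bases with Slc39a13 on the opposite strand (log2 -0.25 ± 0.10 SE, edgeR adjusted p = 0.0447). The remaining ATPases Psmc2, Psmc4, Psmc5 and Psmc6, the scaffold Psmd1 and the ubiquitin receptor Psmd4 lay between -0.24 and -0.16 and did not pass. None of the 9 was called when libraries were scaled by totals, where their median was -0.036.

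In the lid 3 of 8 subunits fell (37.5%), against 25.6% of all tested genes, with a median of -0.26. Scaled by library totals 1 of the 8 fell, against 17.8%. Psmd8 had 117 and 109 CPM in GFP-high under HFD and control, against 168 and 154 CPM in GFP-low. Both GFP-high libraries lay below both GFP-low libraries, as in 34.3% of all tested genes. The fall was 1.42-fold (log2 -0.51 ± 0.10 SE, edgeR adjusted p = 0.000459, DESeq2 adjusted p = 0.0436). Psmd8 lies at chr7:29174188-29180701 on the minus strand and shared 0% of its words with other genes. Psmd6 had 41.5 and 39.1 CPM, against 59.7 and 48.0 CPM (log2 -0.42 ± 0.13 SE, edgeR adjusted p = 0.014). Psmd13 had 51.1 and 44.9 CPM, against 58.1 and 63.9 CPM (log2 -0.34 ± 0.13 SE, edgeR adjusted p = 0.0363), and shares 342 exon bases with Sirt3 on the opposite strand. Psmd14, the deubiquitinase of the lid, had 53.0 and 55.0 CPM, against 57.3 and 60.5 CPM, and did not pass (log2 -0.12 ± 0.12 SE, edgeR adjusted p = 0.418).

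Of the 4 core chaperones 1 rose and 3 did not pass, with log2 ratios from 0.01 to 0.64, where 49.9% of all tested genes lay above 0 and 22.0% were called higher. Psmg2, which pairs with Psmg1 to start the alpha ring, had 24.27 and 17.01 CPM in GFP-high under HFD and control, against 13.15 and 13.37 CPM in GFP-low. It rose 1.56-fold (log2 0.64 ± 0.20 SE, edgeR adjusted p = 0.0167, or 0.00389 scaled by library totals). Under HFD the log2 ratio was 0.86 (95% counting interval 0.46 to 1.32), against 0.34 (-0.14 to 0.84) under control, and a difference between these was not tested. Psmg4, the partner of Psmg3 in the same assembly, had 11.1 and 12.7 CPM, against 8.50 and 9.29 CPM (log2 0.41 ± 0.26 SE, edgeR adjusted p = 0.203). Psmg1 had 25.5 and 17.7 CPM, against 20.8 and 17.4 CPM, and Psmg3 16.8 and 14.3 CPM, against 16.4 and 14.5 CPM, and neither passed. The core chaperones are low genes, with 41 to 170 counts per library. Pomp, the maturation factor of the core, fell (values below). The cap chaperones Psmd5, Psmd9 and Psmd10, known to hold ATPases of the base before assembly, lay between -0.25 and -0.14 and none passed.

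Among the activators, Psme2 fell in GFP-high and the others did not pass. Psme2, the beta subunit of PA28, had 20.2 and 28.2 CPM in GFP-high under HFD and control, against 31.6 and 41.2 CPM in GFP-low, a 1.51-fold fall (log2 -0.59 ± 0.15 SE, edgeR adjusted p = 0.00334). Psme1, the alpha subunit of the same particle, had 155 and 203 CPM in GFP-high, against 155 and 209 CPM in GFP-low (log2 ratio -0.023 ± 0.095 SE, edgeR adjusted p = 0.863; 0.17 scaled by library totals). Psme2 shared 62.9% of its words, mostly with Psme2b, and Psme1 18.6%, so the ratio of the partners is uncertain. Psme3, the nuclear activator, stood at 228 and 205 CPM, against 214 and 198 CPM (log2 0.07 ± 0.09 SE, edgeR adjusted p = 0.561), and rose only on the scale of library totals (log2 0.26, edgeR adjusted p = 0.0349). Psme4, a large nuclear activator, and Psmf1, a proteasome-binding inhibitor, had log2 ratios of -0.18 and -0.30 and did not pass.

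**Figure D3:**
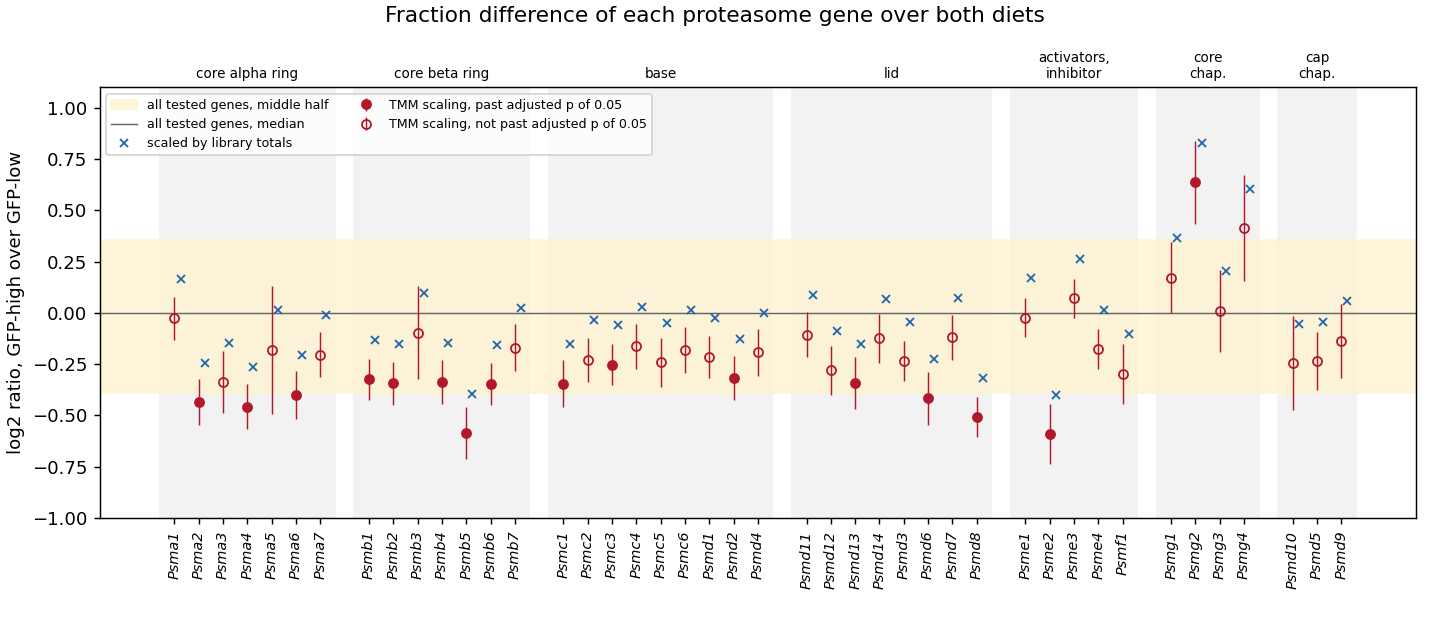
Log2 fraction ratio (GFP-high over GFP-low) of the 43 tested members by class, as edgeR's estimate ± SE over both diets (filled where the adjusted p is below 0.05) and scaled by library totals (crosses). The band spans the quartiles of all tested genes; core and cap subunits lie between -0.59 and -0.03 and the core chaperones between 0.01 and 0.64.

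Within each diet the picture was similar, with 1 library a side and no test. The median log2 ratio of the 43 members was -0.17 under HFD and -0.29 under control, with 34 and 38 members below 0, against 50.2% and 50.3% of all genes. At 1.5-fold, Psmg2 was higher and Psme2 lower under HFD, against 16.0% and 17.6% of all tested genes, and Psmb5 was lower and none higher under control, against 17.6% and 15.1%. Differences of that size were thus few among these genes.

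The diets were compared over both fractions, which asks what the high-fat diet changes. The constitutive proteasome differed little: of 43 tested members Psme1 fell under HFD and none rose (2.33% called), against 6.46% of all tested genes called, of which 3.5% were lower and 2.96% higher. At an unadjusted p below 0.05 there were 4 of 43 members, Psme1, Psme2, Psmb5 and Psmg1, against 20.3% of all tested genes. DESeq2 called 0, against 1.75% of all genes, and had 1 member at an unadjusted p below 0.05, against 5.85%. The 31 core and cap subunits had log2 ratios of HFD over control from -0.21 to 0.33 with a median of 0.06, where the median of all genes was 0.01, and 27 of 31 lay between the quartiles of all genes. For 29 of 31 the estimate ± 2 of edgeR's SE lay inside a 1.5-fold change in either direction, the exceptions being Psma5, with 30 to 41 counts, and Psmb5. That SE comes from 1 library per group and does not cover differences between pools of mice. DESeq2's SEs were larger, and ± 2 SE reached past 1.5-fold for Psma3 (DESeq2 log2 -0.21 ± 0.30 SE) and Psmc4 (0.19 ± 0.22 SE), among others.

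Psme1, at chr14:55578123-55581529 on the plus strand, had 155 CPM in both HFD fractions, against 203 CPM in control GFP-high and 209 CPM in control GFP-low. Both HFD libraries thus lay below both control libraries, a pattern found in 3 of the 43 tested members, Psme1 among them. The share of all tested genes with that pattern is not reported here. The fall was 1.33-fold (log2 -0.41 ± 0.09 SE, edgeR adjusted p = 0.015), of like size in GFP-high (log2 -0.39, 95% counting interval -0.52 to -0.27) and GFP-low (log2 -0.43, interval -0.57 to -0.29). DESeq2 did not call it (adjusted p = 0.549). Psme2 had 20.2 and 31.6 CPM in HFD GFP-high and GFP-low, against 28.2 and 41.2 CPM in the control libraries (log2 -0.43 ± 0.15 SE, edgeR adjusted p = 0.0929). Within each fraction its HFD library was the lower one, with intervals of -0.82 to -0.14 and -0.70 to -0.07, and over both fractions the groups overlapped.

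The immunoproteasome subunits stood beside PA28 in this comparison. Psmb8, which takes the place of Psmb5, had 27.3 and 38.2 CPM in the HFD libraries, against 99.2 and 134 CPM in the control libraries (log2 -1.83 ± 0.12 SE, edgeR adjusted p = 5.12e-08), and Psmb9, which takes the place of Psmb6, had 19.9 and 32.0 CPM, against 43.8 and 57.8 CPM (log2 -0.99 ± 0.14 SE, edgeR adjusted p = 0.000319). Psmb10, the counterpart of Psmb7, had 84.8 and 134 CPM, against 102 and 146 CPM, and did not pass (edgeR adjusted p = 0.292). The constitutive partners did not pass either: Psmb5 had 44.0 and 62.3 CPM under HFD, against 32.8 and 52.8 CPM under control (log2 0.33 ± 0.13 SE, edgeR adjusted p = 0.147). Psmb6 stood at 0.01 ± 0.10 SE and Psmb7 at 0.02 ± 0.12 SE (edgeR adjusted p = 0.957 and 0.96). All 3 immunoproteasome genes fell in GFP-high relative to GFP-low (log2 -0.59 to -0.45, edgeR adjusted p = 0.000199 to 0.00616), against 25.6% of all tested genes. Scaled by library totals Psmb10 alone passed, against 17.8% of all genes lower. DESeq2 also called Psmb10 alone (adjusted p = 0.0215), against 13.9% of all genes lower.

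**Figure D4:**
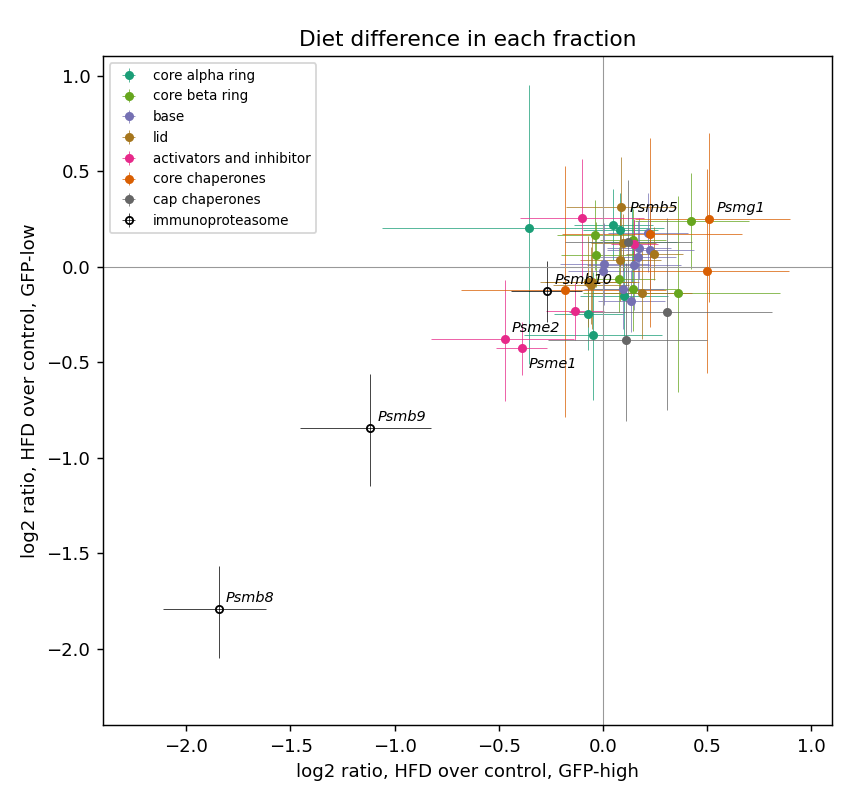
Log2 ratio of HFD over control in GFP-high (horizontal) and GFP-low (vertical) cells, 1 library each, with exact 95% counting intervals. The constitutive members cluster around 0, Psme1 lies at -0.39 and -0.43, and Psmb8 (open circles mark the immunoproteasome) lies furthest out.

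No other member was called for diet. Psmg1 was the highest member, with 25.5 and 20.8 CPM in HFD GFP-high and GFP-low, against 17.7 and 17.4 CPM in the control libraries (log2 0.40 ± 0.17 SE, edgeR adjusted p = 0.202). Psmg2, Psmg3 and Psmg4 stood at 0.30, 0.21 and -0.16 (edgeR adjusted p of 0.445 or more). All 7 tested beta subunits lay at or above 0 (0.01 to 0.33) and the alpha subunits between -0.21 and 0.14. The base lay between -0.02 and 0.20 and the lid between -0.08 and 0.20. Psme3 and Psme4 stood at 0.13 and -0.18 (edgeR adjusted p = 0.464 and 0.306). Within GFP-high the median of the 43 members was 0.10 and within GFP-low 0.01, and no member reached 1.5-fold in either fraction, against 3.96% of all tested genes higher and 4.26% lower in GFP-high and 6.08% and 7.22% in GFP-low. P-values rest on 1 residual degree of freedom and measure only the spread between these libraries, and pools of mice and diet cannot be told apart.

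**Figure D5:**
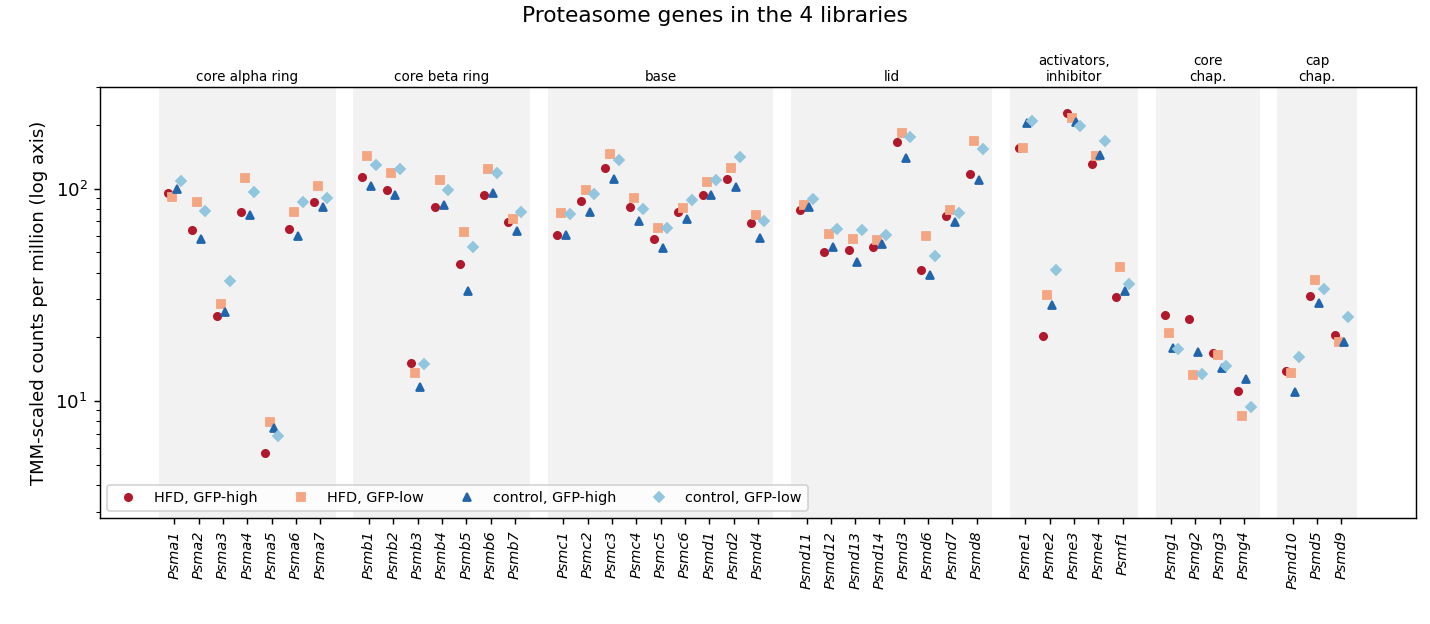
Level of the 43 tested members in each of the 4 libraries (TMM-scaled CPM, log axis), by class. Within most core and cap genes the GFP-low libraries (squares and diamonds) lie above the GFP-high libraries (circles and triangles), and in Psme1 both HFD libraries, at 155 CPM, lie below both control libraries, at 203 and 209 CPM.

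Genes that work with the proteasome were counted from lists, to be read against the 25.6% of all tested genes lower and 22.0% higher in GFP-high, or 17.8% and 34.0% scaled by library totals. Of 8 proteasome parts without a Psm symbol, 2 fell in GFP-high and none rose (median log2 ratio -0.10). Scaled by library totals none fell and Akirin2 rose (median 0.09). With TMM factors the 2 that fell were Pomp, at 47.8 and 40.9 CPM in GFP-high against 62.5 and 62.8 CPM in GFP-low (log2 ratio -0.50 ± 0.12 SE, edgeR adjusted p = 0.00377), and the lid subunit Sem1 (log2 -0.34 ± 0.12 SE, edgeR adjusted p = 0.0228). Akirin2, which takes proteasomes into the nucleus, was the highest (0.26, edgeR adjusted p = 0.242, or 0.0426 scaled by library totals). With TMM factors its log2 fraction ratio was -0.10 under HFD and 0.61 under control, so the sign differed between diets. None of the 8 was called for diet, against 6.46% of all tested genes, a share at which a list this short may hold no call. Uchl5, a deubiquitinase of the cap, was highest for diet at 0.30 (0.51 in GFP-high, 0.03 in GFP-low). Akirin2 was lowest at -0.20 (-0.51 in GFP-high, 0.20 in GFP-low).

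Of 12 genes of ubiquitin supply and activation, 2 fell in GFP-high and none rose (median -0.07). Scaled by library totals 1 fell and 3 rose (median 0.12). The conjugating enzyme Ube2d3 fell, with 166 and 147 CPM in GFP-high under HFD and control, against 194 and 198 CPM in GFP-low (log2 ratio -0.33 ± 0.10 SE, edgeR adjusted p = 0.0119). Ubb, which encodes ubiquitin, stood at 158 and 152 CPM, against 153 and 157 CPM. Rps27a was highest at 0.37 on 18 to 44 counts. None of the 12 was called for diet, against 6.46% of all tested genes, with Ube2d1, a conjugating enzyme, lowest at -0.35.

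Of 16 shuttle receptors and p97 partners, 2 rose and 4 fell in GFP-high, against 47.6% of all tested genes called (median -0.04, which turns to 0.15 scaled by library totals, where 4 rose and none fell). The ubiquilins Ubqln1 and Ubqln4, which carry ubiquitinated proteins, rose (log2 0.25 ± 0.09 and 0.41 ± 0.10 SE, edgeR adjusted p = 0.04 and 0.00275). Vcp, the p97 segregase, had 102 and 108 CPM in GFP-high, against 132 and 155 CPM in GFP-low (log2 ratio -0.44 ± 0.10 SE, edgeR adjusted p = 0.00172), and Ddi2, the protease that activates Nrf1, fell with -0.34 ± 0.10 SE (edgeR adjusted p = 0.0119). Zfand2b was lowest at -0.47 and Zfand2a highest at 0.44. None was called for diet, against 6.46% of all tested genes, with Ubxn1 highest at 0.33 and Zfand2a lowest at -0.38.

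Of 10 tested regulators of proteasome genes, 5 fell and 1 rose in GFP-high, against 47.6% of all tested genes called (median -0.41, or -0.21 scaled by library totals, where 3 fell and 2 rose); 2 listed genes, Nfe2l3 and Maff, were under the count filter. Nfe2l2, the antioxidant factor Nrf2, had 191 and 187 CPM in GFP-high, against 417 and 345 CPM in GFP-low, a 2.01-fold fall (log2 -1.01 ± 0.10 SE, edgeR adjusted p = 6.65e-07, DESeq2 adjusted p = 5.08e-07). Nfe2l1, the factor Nrf1 that raises subunit genes, had 91.4 and 93.9 CPM, against 124 and 129 CPM (log2 -0.44 ± 0.10 SE, edgeR adjusted p = 0.00194, or 0.055 scaled by library totals). Nfya, a subunit of the CCAAT-binding factor NF-Y, rose, with 69.5 and 80.5 CPM against 41.1 and 47.4 CPM (log2 0.76 ± 0.12 SE, edgeR adjusted p = 7.13e-05). Its partners in NF-Y, Nfyb and Nfyc, did not pass and differed in sign (log2 0.31 and -0.28, edgeR adjusted p = 0.116 and 0.108). Mafk, Stat3 and Keap1 also fell, with log2 fraction ratios of -0.88, -0.79 and -0.39. For diet Stat3 alone of the 10 was called, where 6.46% of all tested genes were. It had 32.8 and 63.1 CPM under HFD, against 69.0 and 109 CPM under control (log2 -0.92 ± 0.12 SE, edgeR adjusted p = 0.000141). Nfyc was highest for diet at 0.30. For Nfe2l1 the log2 ratio of HFD over control was -0.05 ± 0.10 SE (edgeR adjusted p = 0.84).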

How the data were processed

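Poly(A)-selected RNA of 4 libraries, 1 per diet and fraction, was counted per gene. Values are raw read counts per Ensembl gene ID as deposited by the authors. Per the submitters' processing notes, cutadapt, TopHat 1.4.1 and HTSeq were used with GRCm38 and mm10; the libraries came from a strand-specific kit, per the labels. The sources used here give neither the strand setting of the counting, nor the annotation release, nor how reads with several matches were treated. Symbols matched 36345 of 38124 IDs, positions came from GENCODE M21 on GRCm38, and promoter windows from RefSeq.

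The 10694 genes with 20 or more counts in 2 or more libraries were fitted with edgeR 4.0.16 (R 4.3.3), TMM factors over all genes, an additive model of diet and fraction, and a robust two-sided quasi-likelihood test, adjusted by Benjamini-Hochberg, threshold 0.05. The model leaves 1 residual degree of freedom, so an interaction of diet and fraction is part of the spread; the common dispersion was 0.00695. Standard errors came from the fold change and F. DESeq2 1.42.0 was an alternative. Within-group log2 ratios added 0.5 CPM; intervals are exact 95% Poisson intervals. The fit was tested on simulated counts with the common dispersion for all genes. It recovered 16% of 1.25-fold, 56% of 1.5-fold and 86% of 2-fold fraction changes. For diet it recovered 6%, 56% and 92%, so small changes would mostly be missed.

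The members and lists were chosen with earlier results of these data known. The fixed rule named members called for diet, the 2 highest and lowest for each comparison, the catalytic subunits, Psme1, Psme2 and untested members, and the highest and lowest gene of each other list. Further members were named after their values were seen. Some values that this rule asks for are not reported here.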

Additional observations from a re-analysis of the deposited data

How the results depend on the processing

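The order of the fractions depended on scaling and on the model. With library totals 2 members were called higher and 3 lower in GFP-high, in place of 1 and 15, because the typical gene shifts by 0.19 on the log2 scale. With a filter of 100 counts 0 were higher, since Psmg2 is not tested there. With DESeq2's Wald test 0 were higher and 1 lower, and with diet left out of the model 0 and 2. For diet, the fall of Psme1 was the single call and was lost with DESeq2 (0 called), where the cause was not tested. It was also lost with fraction left out, where 0 of all 10694 genes were called. There the fraction difference is part of the spread and the common dispersion was 0.135, against 0.00695. That setting therefore says nothing particular to Psme1. DESeq2's size factors, no count filter and a filter of 100 counts left 13 to 16 members lower for fraction and 1 lower for diet. TMM factors over the tested genes alone without the robust step, chosen after seeing the data, gave 13 and 1.

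The median log2 fraction ratio of the members under HFD was 0.040 with library totals and -0.17 with TMM. Under control it ran from -0.29 to -0.12 over the alternatives, and the median diet ratio from 0.09 to 0.12 in GFP-high and from -0.01 to 0.03 in GFP-low. Among the 8 genes named by the fixed rule, the fraction ratio of Psme1 reversed to 0.17 and that of Psmb7 to 0.023 with library totals, and neither was called on either scale. Of the other values of these genes 95 kept their direction and side of the threshold and 11 lost their call.

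No paired analysis was possible because each group holds 1 library and no replicate numbers link libraries; the additive model does compare the fractions within each diet, and the fit with diet left out, above, is the version without that. Leaving out a library leaves no residual degree of freedom, so the values within each diet and fraction stand in its place.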
